A study of Mus musculus with 8 samples.

Results

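The 10 genes described here encode enzymes and an accessory protein that turn arachidonic acid into prostaglandins and leukotrienes, together with the epoxide hydrolase that removes epoxides of the same fatty acid. They were chosen by name (Ptgs1, Ptgs2, Ptgds, Hpgds, Ptges, Ptges2, Alox5, Alox5ap, Ltc4s and Ephx2) out of the 56691 genes in a table of raw counts from mouse cerebellum, by a rule that uses no measured value. The members and the lists used below were drawn up with earlier results of these data known, so counts over them are descriptions only. All 10 were found in the table by their Ensembl identifiers, and all 10 passed the filter on low counts that left 22423 genes for testing. The libraries came from 4 Atm-WT mice (genotype ATM +/+, labelled Control) and 4 Atm-KO mice (genotype ATM -/-) of the B6;129S4-Atmtm1Bal/J line, bred at the study's own facility from heterozygous parents. All were 6 months old. ATM is the kinase lost in ataxia-telangiectasia, a disease in which the cerebellum degenerates. The null allele was in the germline, so every cell of the body lacked functional Atm from conception, and the labels name no treatment. Mouse 7F, an Atm-KO animal, is the only one with an F in its label, and the others carry an M. The label of the tissue says cerebellum, and summed markers of granule cells (at least 3200 CPM in each library, where CPM is the counts-per-million value on TMM-scaled library totals) and of Purkinje cells (at least 7620 CPM) were present throughout. The study's methods describe washing blood from the brain with saline before tissue was collected.

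Cells make these lipids on demand. Phospholipases free arachidonic acid from membranes, and the cyclooxygenases Ptgs1 and Ptgs2 oxidise it to the unstable prostaglandin H2. Terminal synthases then give prostaglandin D2 (Ptgds, Hpgds) or prostaglandin E2 (Ptges, Ptges2). In a separate branch, the 5-lipoxygenase Alox5, helped by the membrane protein Alox5ap, makes leukotriene A4, which Ltc4s joins to glutathione as leukotriene C4. In brain, Ptgds is known from oligodendrocytes, the leptomeninges and the choroid plexus, and its protein is abundant in cerebrospinal fluid. Ptgs2 is known as an inducible gene that neurons switch on with synaptic activity, while Ptgs1 is known from microglia.

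4 of the genes are shown here by the RefSeq promoter window of the GRCm38.p6 build, because they hold the constitutive and inducible cyclooxygenases and the 2 members with the lowest p-values between genotypes. Each window runs from 250 bases before to 50 bases after the RefSeq start, reads 5′ to 3′ on the gene's strand, and is in lower case with motif matches in capitals. The windows lie at chr2:36230176-36230475 (plus strand) for Ptgs1, chr1:150099781-150100080 (plus strand) for Ptgs2, chr2:25469700-25469999 (minus strand) for Ptgds and chr2:30903248-30903547 (minus strand) for Ptges.
Ptgs1: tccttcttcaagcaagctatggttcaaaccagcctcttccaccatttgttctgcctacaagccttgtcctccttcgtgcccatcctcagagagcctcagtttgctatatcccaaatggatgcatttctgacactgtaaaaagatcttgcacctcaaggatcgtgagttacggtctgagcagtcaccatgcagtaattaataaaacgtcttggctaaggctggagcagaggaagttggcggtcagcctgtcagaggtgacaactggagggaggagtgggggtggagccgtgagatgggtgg
Ptgs2: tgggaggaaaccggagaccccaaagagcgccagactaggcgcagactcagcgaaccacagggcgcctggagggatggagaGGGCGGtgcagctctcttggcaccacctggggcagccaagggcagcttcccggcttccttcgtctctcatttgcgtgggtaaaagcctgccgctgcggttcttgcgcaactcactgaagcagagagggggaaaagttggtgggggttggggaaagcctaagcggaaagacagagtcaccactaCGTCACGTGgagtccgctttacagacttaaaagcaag
Ptgds: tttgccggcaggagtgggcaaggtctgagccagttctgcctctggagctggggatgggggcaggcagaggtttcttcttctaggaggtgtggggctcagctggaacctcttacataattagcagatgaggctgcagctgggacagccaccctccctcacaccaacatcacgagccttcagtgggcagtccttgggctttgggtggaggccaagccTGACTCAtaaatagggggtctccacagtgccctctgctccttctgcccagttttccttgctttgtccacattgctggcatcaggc
Ptges: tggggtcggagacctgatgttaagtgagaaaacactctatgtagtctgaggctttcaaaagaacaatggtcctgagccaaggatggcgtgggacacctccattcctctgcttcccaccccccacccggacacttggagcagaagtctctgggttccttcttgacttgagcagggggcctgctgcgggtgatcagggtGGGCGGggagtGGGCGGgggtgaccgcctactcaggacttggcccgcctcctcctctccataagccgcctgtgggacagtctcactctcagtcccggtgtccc
The motifs searched on both strands were the TATA box TATAAA, the CCAAT box CCAAT, the GC box GGGCGG, the core TGACG of a cyclic AMP response element, the AP-1 site TGACTCA and the E box CACGTG. In Ptgs2 the capitals mark a GC box at positions -170 to -165, the response element core on the minus strand at positions 14 to 18 and an E box at positions 17 to 22, and the last pair overlap. The Ptgds window held an AP-1 site at positions -35 to -29, the Ptges window held GC boxes at -53 to -48 and at -42 to -37, and none of the 6 motifs matched in the Ptgs1 window. Among all 32851 windows in the table, 20.8% held the response element core, 7.15% the E box, 5.2% the AP-1 site, 35.7% the GC box, 37.4% the CCAAT box and 13.6% the TATA box. Of the 8 members with a window (Alox5ap and Ephx2 have no entry), 3 held a GC box, 2 an E box, 1 the response element core, 1 the AP-1 site, and 0 a CCAAT or TATA box in exactly these letters. The Ptgs2 window had 16 CG pairs and the Ptgs1 window 6, against a median of 7 over all windows. Positions count from the RefSeq start, and other annotations can place a start elsewhere. These are matches of letters only, and no binding or methylation was measured.

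Total counts ranged from 65967130 to 88030300 per library, so 1 CPM stood for more than 50 counts. Atm itself (chr9:53348097-53448236 in GRCm39) had 67.6, 80.0, 79.4 and 59.0 CPM in Atm-WT mice 2M, 7M, 13M and 32M and 51.1, 44.3, 41.1 and 44.9 CPM in Atm-KO mice 1M, 7F, 11M and 12M. Every Atm-KO library lay below every Atm-WT library, with a log2 fold change of -0.66 (SE 0.10, edgeR quasi-likelihood test with Benjamini-Hochberg adjusted p = 0.0775), and transcripts of the disrupted gene were thus still counted. None of the 10 members lies on chromosome 9 with Atm, and 4 lie on chromosome 2. Values of all other genes are given in the same order of mice, and fitted differences are log2 fold changes of Atm-KO over Atm-WT with their standard errors (SE).

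0 of the 10 members passed an adjusted p of 0.05 in edgeR, and 0 passed 0.1, where 0.0178% and 1.9% of all genes tested passed. At an unadjusted p of 0.05, 2 members (Ptgds and Ptges) were lower in Atm-KO mice and 0 were higher, where the same threshold held 8.48% of all genes on the lower side and 11.7% on the higher side. In the same 2 members every Atm-KO library lay below every Atm-WT library, which was so for 5.12% of all genes tested. In DESeq2, 4 members (Ephx2, Ptgds, Ptges and Ptgs2) were lower at that threshold, where 9.36% of the 20724 genes with an adjusted p were. With a surrogate variable as covariate in edgeR, 3 members (Ltc4s, Ptges and Ptgs2) were lower, where 4.35% of all genes were lower and 10.1% lower or higher. Ptgds no longer passed in that fit, with a log2 fold change of -0.22 against -0.29 without the covariate. The surrogate variable partly followed genotype, from 0.0361 to 0.566 in Atm-WT and from -0.763 to 0.0984 in Atm-KO libraries. The log2 fold change was below 0 in 8 of 10 members, with a median of -0.29, against 53.1% of all genes and a median of -0.02. The share below 0 moved with the level of a gene, from 37.2% in the lowest of 5 equal bands of genes by mean CPM to 71.0% in the highest. Alox5 lay in the lowest band, Ptgs2, Hpgds, Alox5ap and Ltc4s in the next, Ptgs1, Ptges and Ephx2 in the middle band, Ptges2 in the next and Ptgds in the highest.

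**Figure D1:**
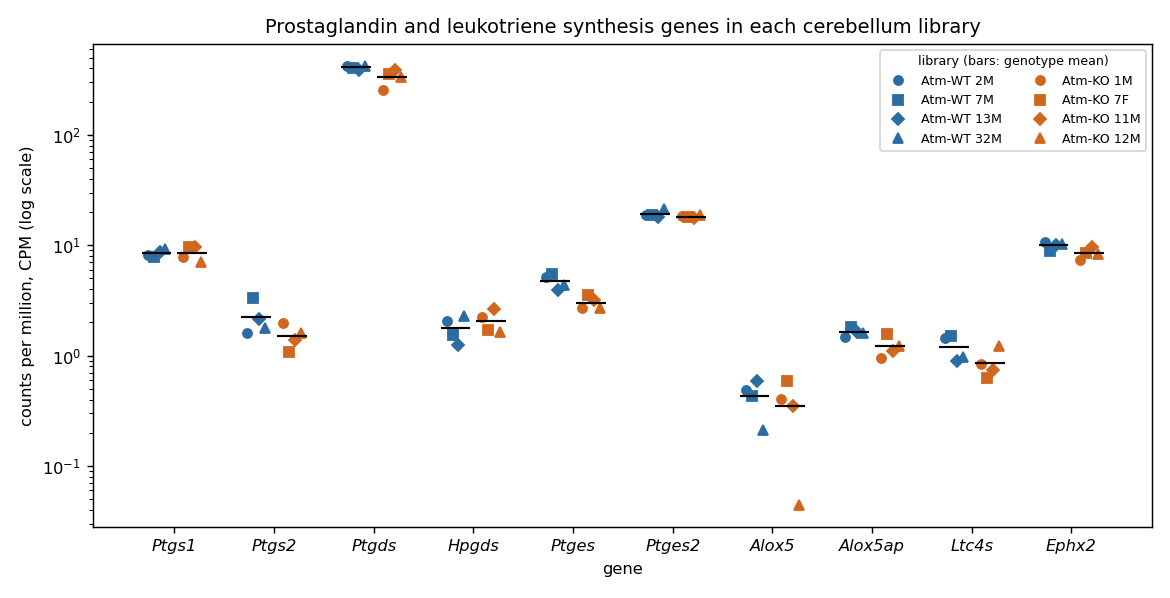
CPM (vertical axis, log scale) of the 10 genes (horizontal axis) in each library, with blue symbols for the 4 Atm-WT mice, orange symbols for the 4 Atm-KO mice and black bars for the genotype means. Only for Ptgds (255.7 to 385.8 against 390.5 to 421.6 CPM) and Ptges (2.68 to 3.54 against 3.92 to 5.51 CPM) do the Atm-KO symbols all lie below the Atm-WT symbols.

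The levels of the members spanned a wide range. Scaled by the merged exon length of each gene, Ptgds averaged 49.8 ± 7.39 CPM per kilobase (SD, n = 8 mice), and it was 18.2-fold over the next gene. Ptges2 followed at 2.73 ± 0.16, then Ptgs1 at 2.19 ± 0.26 and Ephx2 at 1.58 ± 0.20, and each of these was above the next in 8 of 8 libraries. Ltc4s (0.998 ± 0.314) and Ptges (0.88 ± 0.24) were close, with Ltc4s above in 5 of 8 libraries. Alox5ap (0.37 ± 0.08) and Ptgs2 (0.37 ± 0.13) could not be ordered, since Alox5ap was above in 5 of 8 libraries, and Ptgs2 was above Hpgds (0.24 ± 0.06) in 6 of 8. Alox5 was the lowest at 0.09 ± 0.05 and lay below Hpgds in 8 of 8 libraries. Within the prostaglandin D branch, the level of Ptgds was 195 to 336 times that of Hpgds in Atm-WT mice and 121 to 225 times in Atm-KO mice, and these ranges overlapped. With the length of the canonical transcript in place of merged exons, Ptgds averaged 199.6 CPM per kilobase, 55.8-fold over the next gene, and 379 to 653 times Hpgds in Atm-WT and 234 to 437 times in Atm-KO mice, and Hpgds and Ptgs2 changed places.

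**Figure D2:**
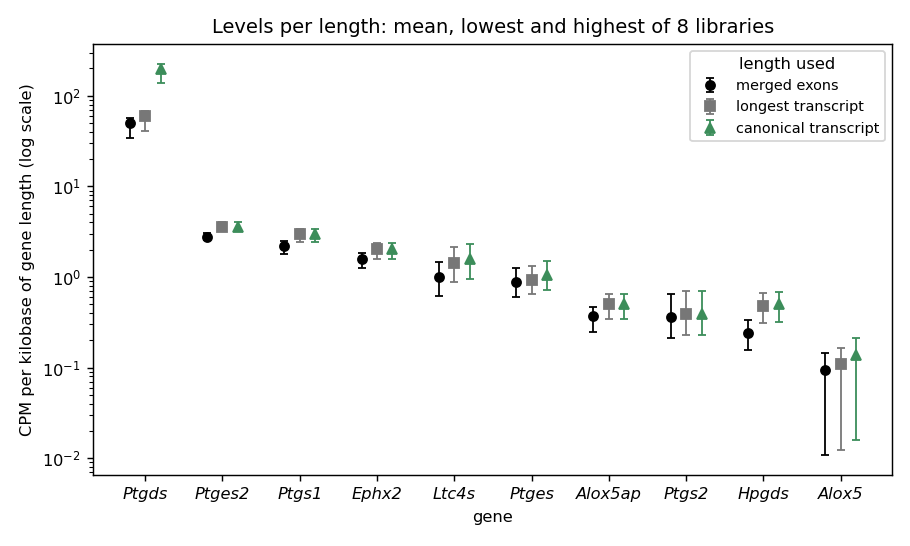
CPM per kilobase (vertical axis, log scale) of the 10 genes in falling order (horizontal axis), as the mean of 8 libraries with lines from the lowest to the highest library. Circles use merged exons, squares the longest transcript and triangles the canonical transcript, and Ptgds lies 18.2-fold over Ptges2 with merged exons.

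Ptgs1, the constitutive cyclooxygenase (chr2:36120438-36142287), had 8.14, 7.79, 8.60 and 9.30 CPM in the Atm-WT mice and 7.76, 9.71, 9.68 and 7.02 CPM in the Atm-KO mice. Its highest and its lowest library were both Atm-KO, and the genotypes overlapped. The log2 fold change was 0.01 (SE 0.13, adjusted p = 0.964 in edgeR), with a 95% interval from -0.28 to 0.31. Intervals given here are not adjusted for the number of genes. Ptgs2, the inducible cyclooxygenase (chr1:149975194-149983978), had 1.60, 3.36, 2.17 and 1.80 CPM in the Atm-WT mice and 1.97, 1.08, 1.39 and 1.61 CPM in the Atm-KO mice. Mouse 7M was the highest Atm-WT library and mouse 7F the lowest of all, and the genotypes overlapped. The mean was 2.23 ± 0.79 against 1.52 ± 0.37 CPM (SD, n = 4 mice each), and the log2 fold change was -0.56 (SE 0.27, edgeR adjusted p = 0.278), with an interval from -1.15 to 0.04. Without Atm-WT mouse 7M it was -0.295. The level of Ptgs1 per length was 3.06 to 6.82 times that of Ptgs2 in Atm-WT mice and 5.19 to 11.8 times in Atm-KO mice, so Ptgs1 was above Ptgs2 in each of the 8 libraries.

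Immediate early genes, which neurons and glia induce within minutes of stimulation, were read beside Ptgs2. Their summed level was 145 to 207 CPM in Atm-WT mice and 89.3 to 139 CPM in Atm-KO mice, without overlap. In 0 of the 10 genes taken singly did every Atm-KO library lie below every Atm-WT library. That held for 5.12% of all genes tested. At an unadjusted p of 0.05, 5 of the 10 listed genes (Fos, Fosb, Egr1, Nr4a1 and Dusp1) were lower and 0 higher, against 8.48% and 11.7% of all genes tested, and the smallest adjusted p of the list was 0.104 in edgeR. Arc (log2 fold change -0.08) and Npas4 (0.46), which were chosen after their values were seen, were among those that did not pass. The lowest summed level was that of mouse 11M, while the lowest Ptgs2 was that of mouse 7F. The part of this list in the values of Ptgs2 was not tested.

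Ptgds, the lipocalin-type prostaglandin D synthase (chr2:25352795-25362601), had 417.4, 406.4, 390.5 and 421.6 CPM in the Atm-WT mice and 255.7, 358.1, 385.8 and 335.8 CPM in the Atm-KO mice. The Atm-WT libraries were close together, while the Atm-KO libraries were spread, with mouse 1M the lowest and mouse 11M nearest to the lowest Atm-WT library. The mean was 409.0 ± 13.9 against 333.9 ± 55.9 CPM (SD, n = 4 mice each), 18.4% lower in the fit. The log2 fold change was -0.29 (SE 0.11, edgeR adjusted p = 0.169), with an interval from -0.53 to -0.06. Without Atm-KO mouse 1M it was -0.185 (edgeR adjusted p = 0.340). With library size alone in place of TMM factors the genotypes overlapped. Hpgds, the haematopoietic prostaglandin D synthase (chr6:65094001-65121983), had 2.06, 1.54, 1.24 and 2.30 CPM in the Atm-WT mice and 2.25, 1.69, 2.66 and 1.63 CPM in the Atm-KO mice. The genotypes overlapped over most of their range, and the log2 fold change was 0.21 (SE 0.25, edgeR adjusted p = 0.676), with an interval from -0.34 to 0.75. Its size rested on single libraries: it was 0.072 without Atm-KO mouse 11M, 0.081 without Atm-WT mouse 13M, 0.137 without Atm-WT mouse 7M and 0.351 without Atm-WT mouse 32M, and 0.492 with a surrogate variable.

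Markers of cells known for Ptgds were summed beside it, and all 3 sums overlapped between genotypes. Summed choroid plexus markers ranged from 786 to 1560 CPM in Atm-WT mice and from 431 to 1220 CPM in Atm-KO mice, with 3 of 7 markers (Folr1, Kcnj13 and Clic6) lower at an unadjusted p of 0.05, where 8.48% of all genes tested were lower. Summed oligodendrocyte markers ranged from 3280 to 4300 CPM in Atm-WT mice and from 1980 to 3380 CPM in Atm-KO mice, with 3 of 7 (Mbp, Mobp and Cnp) lower. Summed markers of meningeal fibroblasts ranged from 109 to 136 and from 94.3 to 121 CPM, with 1 of 8 (Dcn) lower. Mouse 1M, the lowest for Ptgds, was also the lowest for choroid plexus and meningeal markers, while mouse 12M was the lowest for oligodendrocyte markers and, at 1217 CPM, the highest Atm-KO library for choroid plexus markers. No marker of these lists was at 0 in every library. Mast cells, which are not the only cells known for Hpgds, were near 0, with 0 of 5 markers passing the filter on low counts and a sum of at most 0.242 CPM. The part of these lists in the values of Ptgds and Hpgds was not tested, and in bulk tissue fewer cells of a type and less RNA per cell cannot be told apart.

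Ptges, the inducible microsomal prostaglandin E synthase (chr2:30779483-30820196), had 5.12, 5.51, 3.92 and 4.39 CPM in the Atm-WT mice and 2.68, 3.54, 3.16 and 2.72 CPM in the Atm-KO mice. Each Atm-KO library lay below each Atm-WT library, and the nearest pair were Atm-KO mouse 7F and Atm-WT mouse 13M. The mean was 4.73 ± 0.72 against 3.03 ± 0.40 CPM (SD, n = 4 mice each), 36.0% lower in the fit. The log2 fold change was -0.64 (SE 0.17), and its interval ran from -1.01 to -0.28. The adjusted p was 0.105 in edgeR, above the threshold, 0.109 in limma voom and 0.00508 in DESeq2. The study's text names both limma and DESeq2 for these data. Ptges was the only member that DESeq2 called at an adjusted p of 0.05, where DESeq2 called 7.49% of the genes it tested. Ptges2, the membrane-associated prostaglandin E synthase (chr2:32285659-32295786), had 18.87, 18.75, 17.97 and 21.14 CPM in the Atm-WT mice and 18.4, 17.9, 17.6 and 18.8 CPM in the Atm-KO mice. Its genotypes overlapped, and it had the narrowest interval of the members, from -0.25 to 0.10 around a log2 fold change of -0.08 (SE 0.08, edgeR adjusted p = 0.623). That value was -0.029 without Atm-WT mouse 32M, -0.048 without Atm-KO mouse 11M, -0.029 with library size alone and -0.011 with trends of GC content and length removed. The level of Ptges2 per length was 2.19 to 3.11 times that of Ptges in Atm-WT mice and 3.27 to 4.46 times in Atm-KO mice, without overlap. This ratio contains Ptges, so it is not a separate result from the gap of Ptges above.

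Alox5, the 5-lipoxygenase (chr6:116387032-116438139), had 0.488, 0.430, 0.583 and 0.210 CPM in the Atm-WT mice and 0.404, 0.594, 0.348 and 0.044 CPM in the Atm-KO mice. These values rest on 18 to 50 counts in Atm-WT libraries and on 3 counts in mouse 12M, so the gene sat near the limit of this depth. Its highest and lowest library were both Atm-KO, and the log2 fold change of -0.29 (SE 0.56, edgeR adjusted p = 0.812) had an interval from -1.51 to 0.93. Without mouse 12M it was 0.07. Alox5ap, which presents arachidonic acid to Alox5 (chr5:149196003-149227762), had 1.46, 1.81, 1.62 and 1.61 CPM in the Atm-WT mice and 0.955, 1.57, 1.10 and 1.23 CPM in the Atm-KO mice. Mouse 7F alone of the Atm-KO libraries lay within the Atm-WT range, and the log2 fold change was -0.42 (SE 0.21, edgeR adjusted p = 0.291), with an interval from -0.89 to 0.04. Ltc4s, which conjugates leukotriene A4 with glutathione (chr11:50127288-50129443), had 1.44, 1.52, 0.897 and 0.980 CPM in the Atm-WT mice and 0.833, 0.633, 0.748 and 1.23 CPM in the Atm-KO mice. Mouse 12M lay within the Atm-WT range and the other Atm-KO libraries below it, and the log2 fold change was -0.49 (SE 0.28, edgeR adjusted p = 0.350), with an interval from -1.11 to 0.13. With a surrogate variable it was -0.88.

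Alox5ap and Ptgs1 are known from microglia, whose summed markers ranged from 142 to 189 CPM in Atm-WT mice and from 108 to 143 CPM in Atm-KO mice. Of 9 microglial markers, 5 (among them Tmem119, Csf1r and C1qa) were lower at an unadjusted p of 0.05 and 0 higher, against 8.48% and 11.7% of all genes tested, and 0 were at 0 in every library. The lowest microglial sum was that of mouse 12M, while the lowest Alox5ap was that of mouse 1M. Summed markers of border macrophages (6.32 to 12.9 against 6.22 to 8.93 CPM) and of neutrophils (0.161 to 1.25 against 0.237 to 1.32 CPM) overlapped, and 0 of the tested markers (4 of 4 and 1 of 5) were lower or higher at that threshold. The part of microglia in the values of Alox5ap was not tested.

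Ephx2, the soluble epoxide hydrolase, which turns fatty acid epoxides into diols (chr14:66319338-66362011), had 10.8, 8.96, 10.1 and 10.3 CPM in the Atm-WT mice and 7.29, 8.51, 9.66 and 8.33 CPM in the Atm-KO mice. Mouse 11M alone of the Atm-KO libraries lay within the Atm-WT range. The mean was 10.1 ± 0.78 against 8.45 ± 0.97 CPM (SD, n = 4 mice each), and the log2 fold change was -0.25 (SE 0.12, edgeR adjusted p = 0.257), with an interval from -0.51 to 0.01. In brain the enzyme is known from astrocytes, whose markers, with those of Bergmann glia, summed to 2120 to 2300 CPM in Atm-WT mice and to 1920 to 2130 CPM in Atm-KO mice, with 2 of 6 (Gdf10 and Aldh1l1) lower at an unadjusted p of 0.05, where 8.48% of all genes tested were lower. The part of astrocytes in the values of Ephx2 was not tested.

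**Figure D3:**
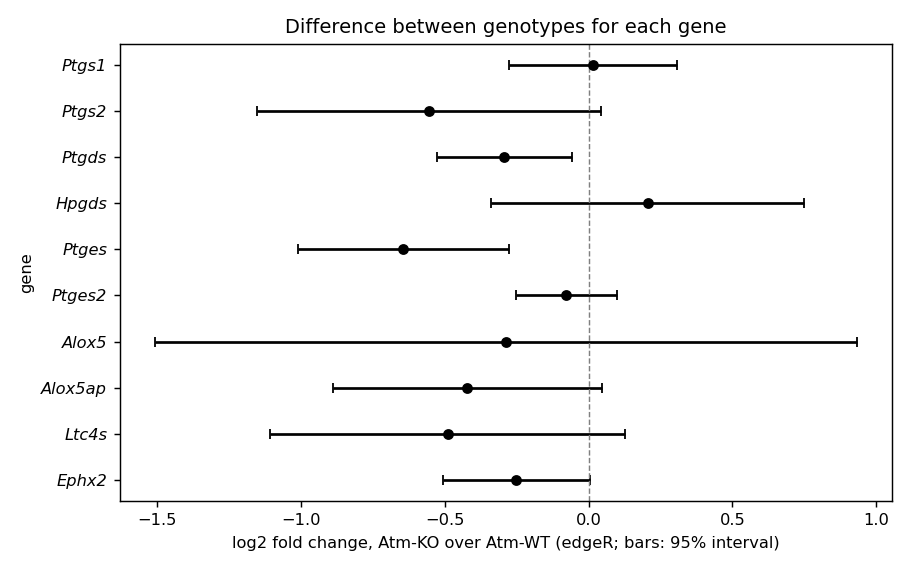
Fitted log2 fold change of Atm-KO over Atm-WT (horizontal axis) for each of the 10 genes (vertical axis), with lines for the 95% interval from edgeR. The intervals of Ptgds (-0.53 to -0.06) and Ptges (-1.01 to -0.28) lie below 0 without adjustment for the number of genes, and that of Alox5 (-1.51 to 0.93) is the widest.

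Several members share exonic bases with a gene on the opposite strand, and whether the counting used strand is not stated, so reads of such partners cannot be told apart. The share of merged exon bases was 25.8% for Ltc4s (with Gm26542), 10.9% for Alox5, 9.3% for Ptgs2 (with Ptgs2os), 7.2% for Ptges, 5.4% for Hpgds, 4.9% for Alox5ap, 3.8% for Ptgs1 and 0.6% for Ptgds. Ptges2 and Ephx2 shared no such bases.

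Other genes of the pathway were read from 6 lists of 63 genes, of which 62 were found under a single identifier and 54 passed the filter on low counts. At an unadjusted p of 0.05, 7 of the 54 were lower in Atm-KO mice and 1 was higher, against 8.48% and 11.7% of all genes tested, and 0 passed an adjusted p of 0.05 in edgeR. Their median log2 fold change was -0.11, with 35 of 54 below 0. In 5 genes every Atm-KO library lay below every Atm-WT library, and in 1 gene above, which held for 5.12% and 6.47% of all genes tested. Of the 8 genes at an unadjusted p of 0.05, Cyp2j9, Pla2g5 and Ptgis passed it in all 8 fits that left out a library, Ptgdr in 6, Abcc4 in 4, Dpep1 in 3, Ptgr2 in 2 and Cyp4f14 in 0. With a surrogate variable as covariate Pla2g5, Ptgdr, Abcc4, Ptgr2 and Cyp4f14 no longer passed, while Cyp2j9, Ptgis and Dpep1 did.

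**Figure D4:**
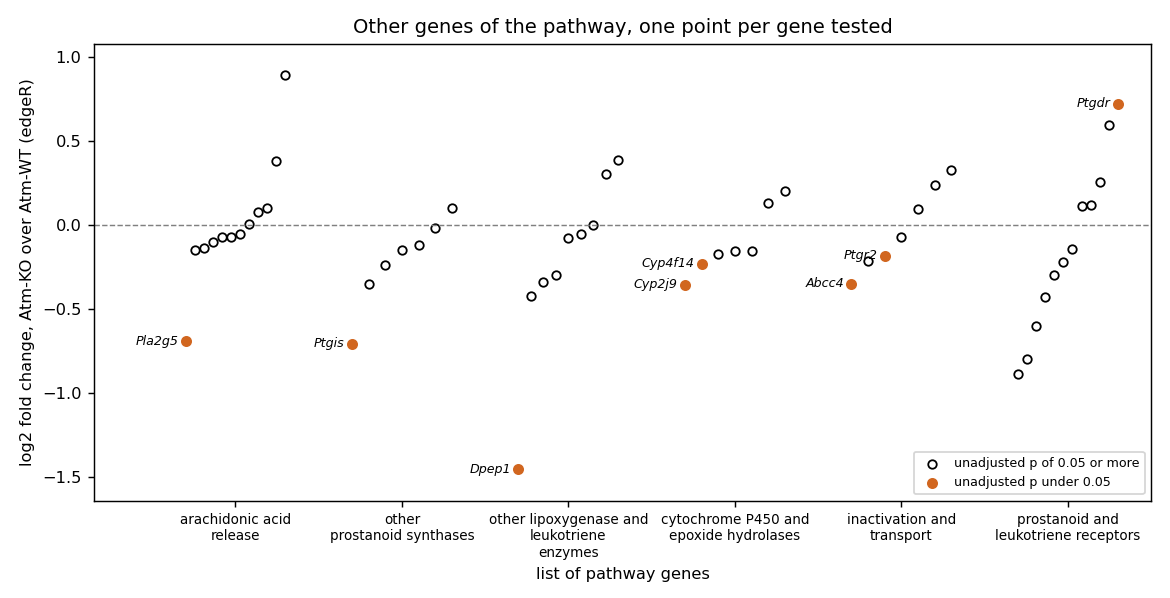
Fitted log2 fold change of Atm-KO over Atm-WT (vertical axis) for the 54 other pathway genes tested, each a point, in 6 lists (horizontal axis). Orange points, which carry names, are the 8 genes with an unadjusted p under 0.05, 7 of them below 0 and Ptgdr above 0.

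The shares of all genes tested at an unadjusted p of 0.05 were 8.48% lower and 11.7% higher. Of 12 tested genes that release or recycle arachidonic acid, 1 was lower and 0 were higher at that threshold. It was Pla2g5, a secreted phospholipase, with 2.42, 2.23, 2.33 and 2.997 CPM in the Atm-WT mice and 1.45, 1.81, 1.80 and 1.11 CPM in the Atm-KO mice, which did not overlap (log2 fold change -0.69, SE 0.21, edgeR adjusted p = 0.125). The cytosolic phospholipase gene Pla2g4b had 0.89 (adjusted p = 0.330) and the acyltransferase gene Mboat7 -0.15 (adjusted p = 0.340) as log2 fold changes in edgeR. Of 7 other prostanoid synthases, 1 was lower and 0 were higher. It was Ptgis, the prostacyclin synthase, with 1.87, 1.91, 1.41 and 1.81 CPM in the Atm-WT mice and 1.10, 0.671, 1.22 and 1.29 CPM in the Atm-KO mice, which did not overlap (log2 fold change -0.71, SE 0.24, edgeR adjusted p = 0.151). Such a gap with Atm-KO lower held for 5.12% of all genes tested. Cbr1 (log2 fold change -0.24, adjusted p = 0.331 in edgeR), which can reduce prostaglandin E2, and Ptges3 (-0.15, adjusted p = 0.395), the cytosolic prostaglandin E synthase and a cochaperone, were the next by p.

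Ptgis is known from blood vessels, where summed mural cell markers ranged from 121 to 165 CPM in Atm-WT mice and from 94.0 to 133 CPM in Atm-KO mice, with 2 of 5 (Acta2 and Myh11) lower at an unadjusted p of 0.05, where 8.48% of all genes tested were lower. Summed endothelial markers ranged from 149 to 180 and from 130 to 174 CPM, with 2 of 5 (Pecam1 and Cdh5) lower. The part of vascular cells in the values of Ptgis was not tested.

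Over all genes tested, 8.48% were lower and 11.7% higher at an unadjusted p of 0.05. Of 9 tested lipoxygenase and leukotriene genes, 1 was lower and 0 were higher at that threshold. It was Dpep1, a dipeptidase that turns leukotriene D4 into leukotriene E4, with a mean of 0.424 CPM in the Atm-WT and of 0.154 CPM in the Atm-KO mice and overlapping libraries (log2 fold change -1.45, SE 0.65, edgeR adjusted p = 0.243), and its count in mouse 11M was 2. The gamma-glutamyltransferase genes Ggt5 (log2 fold change -0.34, adjusted p = 0.369) and Ggt1 (-0.42, adjusted p = 0.376), which trim leukotriene C4, followed in edgeR. Lta4h, which makes leukotriene B4, had 34.4 to 35.9 CPM in Atm-WT mice and 34.5 to 37.0 CPM in Atm-KO mice and was chosen after its values were seen. Of 7 tested cytochrome P450 and epoxide hydrolase genes, 2 were lower and 0 were higher at that threshold. Cyp2j9, a cytochrome P450 gene, had 45.7, 42.1, 43.5 and 40.3 CPM in the Atm-WT mice and 29.0, 39.3, 35.8 and 30.0 CPM in the Atm-KO mice, without overlap (log2 fold change -0.35, SE 0.10, edgeR adjusted p = 0.112). Cyp4f14, of a family that oxidises leukotriene B4, had 8.96 to 9.42 CPM against 7.37 to 8.45 CPM, also without overlap (log2 fold change -0.23, SE 0.10, edgeR adjusted p = 0.237). A gap of this kind with Atm-KO lower was present in 5.12% of all genes tested. Cyp4f14 passed an unadjusted p of 0.05 in 0 of the 8 fits that left out a library, while Cyp2j9 passed in all 8. Ephx1, the microsomal epoxide hydrolase, had a log2 fold change of -0.15 (edgeR adjusted p = 0.294).

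Among all genes tested, 8.48% were lower and 11.7% higher at an unadjusted p of 0.05. Of 7 tested genes for inactivation and transport, 2 were lower and 0 were higher at that threshold. They were Abcc4, a prostaglandin exporter (log2 fold change -0.35, SE 0.14, edgeR adjusted p = 0.204), and Ptgr2, a prostaglandin reductase (-0.18, SE 0.08, adjusted p = 0.239). The leukotriene C4 exporter gene Abcc1 had a log2 fold change of 0.24 (edgeR adjusted p = 0.277). Of 12 tested receptors, 0 were lower and 1 was higher. It was Ptgdr, the receptor for prostaglandin D2, with 0.792, 0.725, 0.536 and 0.478 CPM in the Atm-WT mice and 1.30, 0.826, 0.890 and 1.16 CPM in the Atm-KO mice, all Atm-KO libraries above all Atm-WT libraries (log2 fold change 0.72, SE 0.27, edgeR adjusted p = 0.173). The leukotriene B4 receptor gene Ltb4r2 had -0.80 (adjusted p = 0.285), without overlap, and the cysteinyl leukotriene receptor gene Cysltr2 had 0.59 (adjusted p = 0.336) as log2 fold changes in edgeR. Over all genes tested, every Atm-KO library lay below every Atm-WT library in 5.12% and above in 6.47%.

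**Figure D5:**
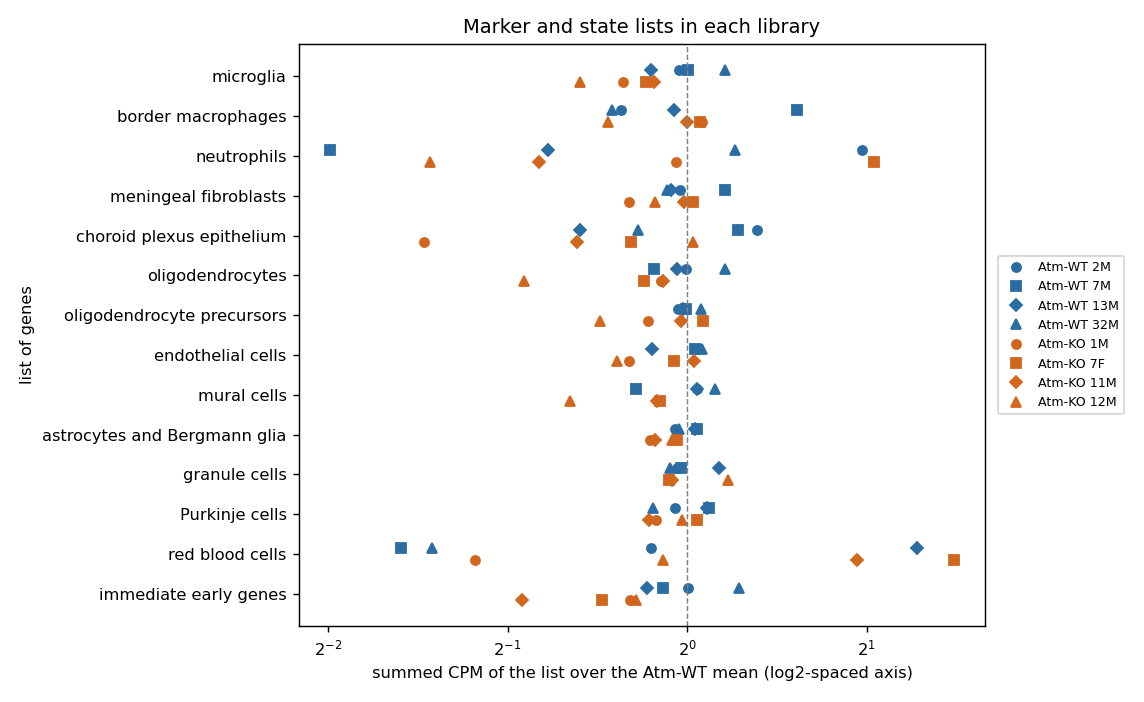
Summed CPM of each list of cell type markers and of immediate early genes (vertical axis) over the mean of the 4 Atm-WT mice (horizontal axis, log2-spaced), with blue symbols for Atm-WT and orange symbols for Atm-KO libraries. The immediate early gene sums do not overlap between genotypes (145 to 207 against 89.3 to 139 CPM), though 0 of the 10 genes separate the genotypes singly. Mouse 12M (orange triangles) is the lowest library for the mural, oligodendrocyte and microglial sums. Mast cell markers, of which 0 were tested, are not drawn.

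Sums of the other lists overlapped between genotypes, with ranges of 3200 to 4010 CPM for granule cells, 7620 to 9610 CPM for Purkinje cells, 54.3 to 80.7 CPM for oligodendrocyte precursors and 5.87 to 49.5 CPM for red blood cells over all 8 libraries.

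The genes whose log2 CPM followed a member most closely over the 8 libraries were searched among 13252 genes with a mean of at least 1 CPM. For Ptgds they were Pcx (Pearson r = 0.974), Mapk8ip2 (0.969) and Ckap4 (0.962), and the same genes led when each genotype's mean was taken off first, with r of 0.974, 0.939 and 0.956. For Ptges they were Clint1 (0.991), Srpra (0.987) and Rtn4rl1 (0.981), and of these Clint1 stayed among the first 3 within genotypes (0.976), behind Mtcl3 (0.992) and Kank1 (0.992). For Ptgs2 they were Dhx15 (0.949), Tmppe (0.932) and Irf2bp2 (0.907), and of these Dhx15 stayed within genotypes (0.957), behind Rsbn1l (0.971) and Zfp974 (0.959). Over so many genes and so few libraries, which share their depth and composition between genes, values this high describe these libraries only. Among the members themselves, the pairs with the highest r of log2 CPM were Ptgds and Ephx2 (0.900), Ptges and Alox5ap (0.818) and Ptgds and Ptges (0.781).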

How the data were processed

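The authors aligned reads of 8 cerebellum libraries with STAR to GRCm39 after FastQC 0.11.9, counted them per gene with featureCounts on GENCODE Release 28, and deposited the raw counts without normalization. Strand and pair settings are not given in the sources used here, and between 67.3% and 73.3% of counts from 1 to 50 were even, so a count may be a read or a fragment.

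Identifiers without their version were matched to GENCODE vM39 on the same build (98.8% of 56691), and listed symbols to it or to RefSeq synonyms. Dpep2 had no single match and was not analysed here. Genotypes were taken from the labels and compared with edgeR 4.0.16 (R 4.3.3) by filterByExpr, TMM factors, glmQLFit and glmQLFTest, with Benjamini-Hochberg adjustment over all 22423 genes and no covariate. CPM used TMM factors. The prior count of log2 CPM was 2. Intervals used 11.5 degrees of freedom. The tests were tested on simulated data. DESeq2 1.42.0, limma 3.58.1 voom, other scalings, filters, covariates (sva 3.50.0) and each library left out were alternatives.

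The members and lists were chosen with earlier results of these data known. By rule, the named genes were the members, Atm, the 3 tested genes with the smallest p in each pathway list, and the 3 most like Ptgds, Ptgs2 and Ptges. Outside it, markers and immediate early genes were named from their lists for passing an unadjusted p of 0.05, and Arc, Npas4, Lta4h, Pla2g4e, Fam227b, Eif3j1 and Eif3j2 after their values were seen. The mice are separate animals, and no number pairs them.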

Additional observations from a re-analysis of the deposited data

Results flagged for a closer look

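Of 86 groups of 4 libraries examined (each member, each pathway gene named, and each marker list or immediate early gene sum, in each genotype), 3 had a library far from the other libraries of its genotype, where chance gives about 1 in 20 groups, or 4.3. The summed endothelial markers were 149 CPM in Atm-WT mouse 13M against 175 to 180 CPM in the other Atm-WT mice. The summed mural cell markers were 94.0 CPM in Atm-KO mouse 12M against 132 to 133 CPM in the other Atm-KO mice. The summed granule cell markers were 4010 CPM in the same mouse against 3200 to 3230 CPM. None of the values of the 10 members was so far from its group.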

How the results depend on the processing

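No paired analysis was possible because the labels pair no mice. 8 of 10 members kept the direction of their difference under every alternative. The exceptions were Ptgs1, whose log2 fold change lay between -0.038 and 0.097 with a library left out (-0.0048, -0.029, -0.034 and -0.038 without Atm-WT mice 2M and 7M and Atm-KO mice 7F and 11M), and Alox5, at 0.043 with a surrogate variable and between -0.651 and 0.069 (0.069 without Atm-KO mouse 12M) with a library left out. Alox5 was not tested when at least 10 counts were required in every library. DESeq2 called 1 member (Ptges) and 2 other pathway genes (Cyp2j9 and Pla2g5) at an adjusted p of 0.05, where it called 7.49% of its genes, and 4 members (Ephx2, Ptgds, Ptges and Ptgs2), all lower, at an unadjusted p of 0.05, where edgeR gave 0, 0 and 2. At that threshold 9.36% of the genes with an adjusted p were lower in DESeq2. The adjusted p of Ptges ranged from 0.00508 to 0.371 and that of Ptgds from 0.0974 to 0.572 over the alternatives. Pathway genes at an unadjusted p of 0.05 numbered 4 with a surrogate variable (where 10.1% of all genes passed), which loads on Atm-KO mouse 12M and Atm-WT mouse 32M, and between 4 and 11 with a library left out (4 without Atm-WT mouse 32M, 4 without Atm-KO mouse 1M, 5 without Atm-KO mouse 12M), against 8. The share of all genes at that threshold moved too, to 15.6%, 13.6% and 14.2% in these 3 fits, against 20.2%. Members without overlap between genotypes numbered 1 (Ptges) with library size alone and between 2 and 3 with a library left out, where 10.9% and between 13.4% and 21.1% of all genes did not overlap in either direction, against 11.6% with all libraries. In the order of levels, 7 members changed place when CPM was not scaled by length, 2 with the longest transcript and 2 with the canonical transcript, which was chosen after seeing the data. The causes were not tested. Low counts limit Alox5 most.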

Other observations

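The phospholipase gene Pla2g4e, a pathway gene chosen here after its values were seen, had 44.3 and 27.7 CPM in Atm-WT mice 2M and 13M and 25.9, 25.4 and 30.0 CPM in Atm-KO mice 1M, 11M and 12M. It had 4.04, 4.02 and 4.57 CPM in Atm-WT mice 7M and 32M and in Atm-KO mouse 7F, so its level did not follow genotype (log2 fold change 0.10, SE 0.72, edgeR adjusted p = 0.954). Pla2g4e lies at chr2:119996893-120076084 in GRCm39. Of the 20 genes among 15682 with the highest absolute Pearson r with it over the 8 libraries (at least 0.905), 6 lie on chromosome 2, which holds 7.56% of the genes searched, and 14 lie on other chromosomes, among them the gene with the highest r (0.996), Eif3j2 on chromosome 18. Of those on chromosome 2, and likewise chosen after their values were seen, Fam227b (chr2:125825403-125993924) had 4.45, 0.457, 2.21 and 0.723 CPM in Atm-WT and 2.28, 0.594, 2.82 and 2.96 CPM in Atm-KO mice. Eif3j1 (chr2:121858606-121906334) ran the other way, with 21.1, 48.5, 36.6 and 49.6 CPM in Atm-WT and 32.7, 48.3, 29.9 and 31.4 CPM in Atm-KO mice. Eif3j2, on chromosome 18, ran opposite to Eif3j1, with 20.03, 0.5373, 10.78 and 0.7464 CPM in Atm-WT and 9.564, 0.7745, 11.04 and 10.07 CPM in Atm-KO mice. These genes are given as values, and no explanation was tested.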
